A study of Mus musculus with 12 samples.

Results

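The 10 genes described here, of 34245 in the expression table, are parts and targets of the Hippo pathway. They were chosen by name: the angiomotin family Amot, Amotl1, and Amotl2, the kinases Lats1 and Lats2, their activator Nf2, the co-activators Yap1 and Wwtr1 (TAZ), the DNA-binding partner Tead4, and the target gene Ctgf (Ccn2 in newer naming). All 10 were found in the table. The choice was made with the p38i-against-DMSO results in view, so the values of these genes in that comparison are given as a description with no test.

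The libraries were poly(A) mRNA-seq libraries from mouse blastocysts of C57Bl6 x CBA/W F1 crosses. The embryos were recovered at E1.5, cultured to E3.5, and then kept in culture (4 h, 7 h, or 10 h) in either the solvent DMSO or 20 µM SB220025, an inhibitor of the kinase p38-MAPK (p38i). Each of the 6 groups had 2 libraries, and each library was a pool of 30 whole blastocysts of mixed cell lineages. In such pools, fewer cells of a type and less RNA per cell cannot be told apart.

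In the Hippo pathway, the MST kinases (Stk3, Stk4) with Sav1 and Mob1 activate LATS1 and LATS2, which phosphorylate YAP1 and TAZ and keep them out of the nucleus. Unphosphorylated YAP1 and TAZ enter the nucleus, bind the TEAD factors, and switch on genes such as Ctgf, Cyr61, and Amotl2. In the mouse blastocyst, YAP1 and TEAD4 are active in the outer trophectoderm, where they induce Cdx2 and Gata3, whereas angiomotin at the junctions of inner cells helps LATS to hold YAP1 in the cytoplasm. AMOTL2 and LATS2 are both YAP target genes and YAP inhibitors, so they form a feedback loop.

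The element that TEAD factors bind is commonly written as GGAATG, or CATTCC on the other strand. The 250 bases before the RefSeq start site of Amotl2 are shown because Amotl2 had the largest difference of the 9 genes that were tested at 4 h and at 7 h. For the other genes with a match, 26 bases around it are shown for comparison. Sequences are from RefSeq on GRCm38.p6, read on the strand of the gene, with the match in capitals.
Amotl2: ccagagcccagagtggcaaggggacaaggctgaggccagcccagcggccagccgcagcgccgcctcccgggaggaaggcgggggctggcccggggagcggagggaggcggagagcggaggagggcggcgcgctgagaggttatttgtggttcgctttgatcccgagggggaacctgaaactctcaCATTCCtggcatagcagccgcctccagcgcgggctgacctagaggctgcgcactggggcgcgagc
Lats2: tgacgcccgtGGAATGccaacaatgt
Yap1: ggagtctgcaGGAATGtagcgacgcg
Wwtr1: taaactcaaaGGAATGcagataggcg
The Amotl2 stretch lies at chr9:102717554-102717803 on the plus strand. The match begins 65 bases before the start site. The Lats2 piece lies at chr14:57746104-57746129, the Yap1 piece at chr9:8004722-8004747, and the Wwtr1 piece at chr3:57576031-57576056, all on the minus strand. The Yap1 and Wwtr1 matches begin 141 and 136 bases before the start site, and the Lats2 match begins at base 5 after it.

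The windows searched ran from 250 bases before to 50 bases after each start site. Of the 8 genes with a window, 4 held the motif on either strand: Amotl2, Lats2, Yap1, and Wwtr1. Lats2, Wwtr1, and Nf2 had 2 windows each, and the second window of Lats2 held no match. The windows of Amotl1, Amot, Lats1, and Nf2 held no match, and the windows of Ctgf and Tead4 were not analysed here. Of all 32851 windows, 14.7% held a match, a share counted by window and not by gene. A match is a description of letters in these windows and not a binding site.

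Depth ranged from 11242313 to 24457311 mapped reads per library. The shallowest library, p38i 7 h replicate 1, also had the fewest genes with a read, 14002 against 16342 to 17640 in the others. Levels are in RPKM, reads scaled by exon length and library size. The difference between groups is the difference of mean log2 RPKM, p38i minus DMSO. The median of this difference over all genes tested was 0.07 at 4 h, -0.14 at 7 h, and -0.02 at 10 h. At 7 h it depended on transcript length, with a median of 0.44 for transcripts under 1500 bases and of -0.45 for those of 6000 bases or more. The same medians were 0.22 and -0.10 at 4 h, and -0.04 and -0.0041 at 10 h. Since 7 of the 10 genes are longer than 6000 bases, the value with the length trend removed by loess stands beside the 7 h difference of each of the 9 genes that were tested.

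Trophectoderm markers summed to between 1764 and 2590 RPKM in the 12 libraries, epiblast markers to between 637 and 794 RPKM, and primitive endoderm markers to between 141 and 225 RPKM. In the p38i 7 h libraries the primitive endoderm sum was 141 and 146 RPKM, against 205 and 225 RPKM in the DMSO 7 h libraries. The trophectoderm sum at 7 h overlapped between DMSO (1838 and 2424 RPKM) and p38i (2089 and 2228 RPKM). It was mostly Krt8 and Krt18. Of its 9 markers, Cdx2, Gata3, Eomes, and Tfap2a were lower with p38i at 7 h without overlap, and 5 overlapped. Of all genes tested, 38.7% were lower in this way. At 4 h the trophectoderm sum was higher with p38i (1946 and 1985 RPKM, against 1764 and 1921 RPKM). At 10 h the epiblast sum was lower with p38i (637 and 669 RPKM, against 711 and 718 RPKM). The other sums of these 3 lineages overlapped. The part of lineage composition in the differences below was not tested. Markers of granulosa cells, oviduct, and oocytes summed to at most 8.27 RPKM, the highest sum being that of granulosa markers, which was mostly Amhr2. The granulosa sum was higher with p38i at 4 h (5.78 and 8.27 RPKM, against 3.52 and 3.85 RPKM with DMSO) and at 7 h (6.30 and 6.70 RPKM, against 5.69 and 6.03 RPKM). The oocyte sum was higher with p38i at 7 h (3.21 and 6.82 RPKM, against 2.45 and 2.86 RPKM). Zp3 was its largest part, and the 6.82 RPKM was in p38i 7 h replicate 1, the shallowest library. Of the oocyte markers, Zp3 and Oosp1 were higher at 7 h without overlap, Bmp15 was lower without overlap, and Zp2 and Gdf9 overlapped. The part of these cells in the differences was not tested either.

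**Figure D1:**
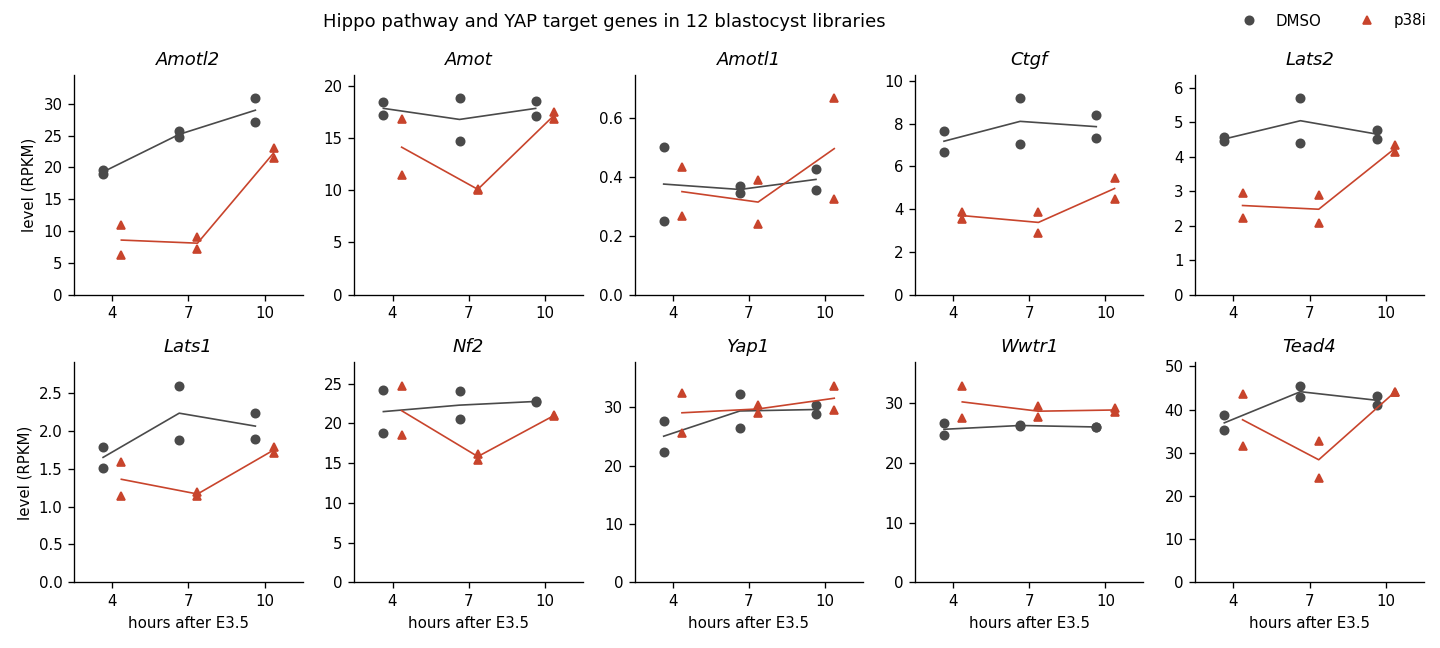
Level in RPKM (y axes, from 0) of each of the 10 genes against hours after E3.5, with DMSO libraries as dark circles, p38i libraries as red triangles, and lines through the means of 2 libraries. For Amotl2 and Ctgf the p38i libraries lie below the DMSO libraries at every time; for Yap1 the groups overlap at every time.

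Amotl2, a scaffold of cell junctions that binds YAP1 and activates LATS, had the largest log2 difference of the 9 genes tested at 4 h and at 7 h. Its gene lies at chr9:102716672-102733418 on GRCm38 (ENSMUSG00000032531.15). At 4 h its level was 19.0 and 19.6 RPKM in the DMSO libraries and 10.9 and 6.22 RPKM in the p38i libraries. At 7 h it was 25.7 and 24.7 RPKM with DMSO and 9.07 and 7.11 RPKM with p38i. At 10 h it was 27.1 and 30.9 RPKM with DMSO and 23.1 and 21.5 RPKM with p38i. All 6 p38i libraries were therefore below the DMSO libraries of their own time, and the 4 p38i libraries of 4 h and 7 h were below all 6 DMSO libraries. The reads behind these levels numbered 641 to 4522 per library.

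By mean log2 RPKM, Amotl2 was 2.34-fold lower with p38i at 4 h (log2 difference -1.23) and 3.14-fold lower at 7 h (log2 difference -1.65). At 10 h the log2 difference was -0.38. With the length trend removed, the value at 7 h was -1.33, and without p38i 7 h replicate 1 it was -1.83. At 4 h the size of the difference turned on the p38i replicates, from -1.63 without p38i replicate 1 to -0.82 without p38i replicate 2. Ordered by group mean, Amotl2 was lowest in p38i 7 h (8.09 ± 1.38 RPKM, SD, n = 2) and p38i 4 h (8.58 ± 3.34 RPKM), which overlapped. It followed with DMSO 4 h (19.3 ± 0.468 RPKM), p38i 10 h (22.3 ± 1.15 RPKM), DMSO 7 h (25.2 ± 0.694 RPKM), and DMSO 10 h (29.0 ± 2.64 RPKM), and no 2 neighbours among these 4 overlapped.

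Amot, the founding member of the family and the angiomotin that holds LATS at the junctions of inner cells, lies on the X chromosome (chrX:145446425-145505181). At 4 h it was at 17.2 and 18.5 RPKM with DMSO and at 16.8 and 11.5 RPKM with p38i. At 7 h it was at 14.8 and 18.8 RPKM with DMSO and at 10.1 and 10.0 RPKM with p38i. At 10 h the DMSO libraries, at 17.1 and 18.6 RPKM, and the p38i libraries, at 17.5 and 16.9 RPKM, overlapped. The log2 differences were -0.36, -0.72, and -0.05, and the 7 h value was -0.31 with the length trend removed. At 4 h the value ran from -0.64 without p38i replicate 1 to -0.086 without p38i replicate 2.

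Amotl1 had the lowest level of the 10 genes, at 0.239 to 0.666 RPKM with 42 to 164 reads. It stayed under 1 RPKM in all 12 libraries, did not pass the filter on low values, and was left out of every fit. Its DMSO and p38i libraries overlapped at each time. The family in these blastocysts thus consisted almost wholly of Amot and Amotl2 transcripts.

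A share within a family does not depend on the total to which a library is scaled. It can change with a length correction, since the genes of a family differ in length, and the shares here were not corrected for length. Amotl2 made up 52.1% and 50.8% of the summed angiomotin RPKM in the DMSO libraries at 4 h, and 38.8% and 34.6% with p38i. At 7 h it made up 63.0% and 56.3% with DMSO and 46.3% and 40.9% with p38i. At 10 h it made up 60.8% and 62.0% with DMSO and 56.5% and 55.0% with p38i. The p38i libraries were below the DMSO libraries at all 3 times, so that Amot was the more abundant angiomotin in the 4 p38i libraries of 4 h and 7 h and Amotl2 in the 8 other libraries.

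**Figure D2:**
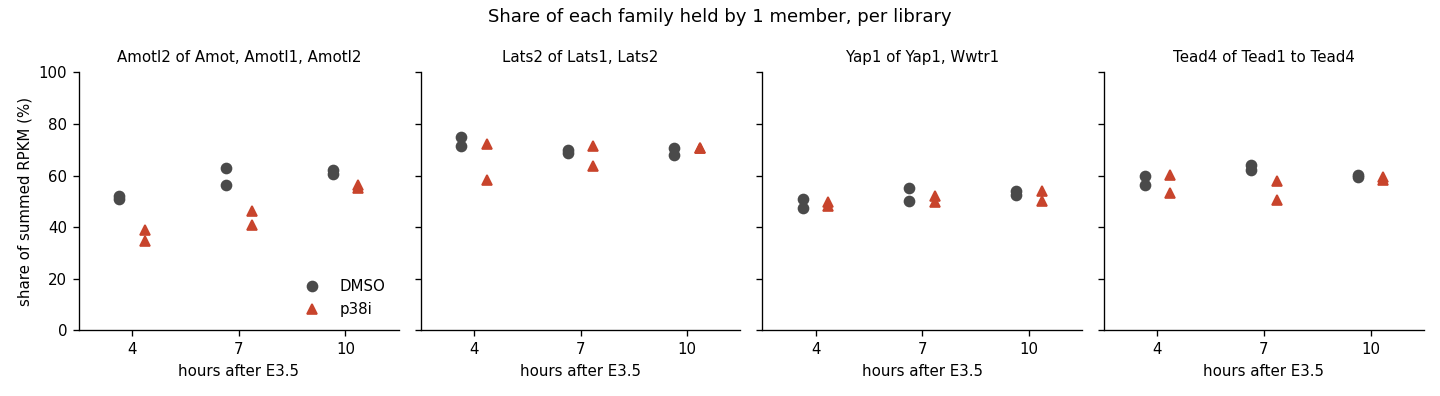
Share of the summed RPKM of a family (y axis, %) held by Amotl2, Lats2, Yap1, or Tead4 in each library, against hours after E3.5, with DMSO as dark circles and p38i as red triangles. The Amotl2 share is lower with p38i at every time; the Yap1 share lies between 47.6% and 55.3% in all 12 libraries.

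Ctgf encodes a secreted matricellular protein and is a widely used readout of YAP-TEAD activity. The gene lies at chr10:24595442-24598683 (ENSMUSG00000019997.11), and its exonic length of 2861 bases is the shortest of the 10. The 4 h libraries were at 7.67 and 6.70 RPKM with DMSO and at 3.52 and 3.88 RPKM with p38i. The 7 h libraries were at 7.04 and 9.19 RPKM with DMSO and at 2.89 and 3.87 RPKM with p38i. At 10 h it was at 8.39 and 7.34 RPKM with DMSO and at 4.49 and 5.45 RPKM with p38i. All 6 p38i libraries were below all 6 DMSO libraries. The fewest reads behind a value were 93, in p38i 7 h replicate 1.

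By mean log2 RPKM, Ctgf was 1.94-fold lower with p38i at 4 h, 2.40-fold lower at 7 h, and 1.59-fold lower at 10 h (log2 differences -0.96, -1.27, and -0.67). The 7 h value was -1.24 with the length trend removed and -1.06 without p38i 7 h replicate 1. Ctgf was the only one of the 9 genes tested whose 3 differences all exceeded 0.5 on the log2 scale. Its p38i groups did not differ beyond their spread at 4 h (3.70 ± 0.256 RPKM, SD, n = 2) and 7 h (3.38 ± 0.691 RPKM), and the DMSO groups overlapped with each other at all 3 times.

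Lats2, the LATS kinase that YAP itself induces, lies at chr14:57642077-57758388. Its 4 h levels were 4.57 and 4.45 RPKM with DMSO and 2.95 and 2.21 RPKM with p38i. Its 7 h levels were 4.39 and 5.69 RPKM with DMSO and 2.87 and 2.07 RPKM with p38i. The 10 h libraries were at 4.78 and 4.52 RPKM with DMSO and at 4.34 and 4.13 RPKM with p38i. The groups were apart at each time, and the p38i 10 h libraries were close to the DMSO range. The log2 differences were -0.82, -1.03, and -0.14, and the 7 h value was -0.66 with the length trend removed.

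Lats1, the paralogous kinase, was at 1.14 to 2.59 RPKM, with 94 to 442 reads per library. At 4 h its groups overlapped (1.51 and 1.79 RPKM with DMSO, 1.14 and 1.58 RPKM with p38i). At 7 h the DMSO libraries were at 1.88 and 2.59 RPKM and the p38i libraries at 1.15 and 1.19 RPKM, a log2 difference of -0.92, or -0.55 with the length trend removed. At 10 h the difference was -0.24. Lats2 made up 58.2% to 75.1% of the summed LATS RPKM, and its share overlapped between DMSO and p38i at 4 h and 7 h. At 10 h the shares were 68.1% and 70.5% with DMSO and 70.8% and 70.7% with p38i.

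Nf2 encodes merlin, which recruits LATS to the membrane. At 4 h it overlapped between DMSO (18.7 and 24.2 RPKM) and p38i (24.7 and 18.5 RPKM). By 7 h the levels were 20.6 and 24.0 RPKM with DMSO and 15.4 and 16.2 RPKM with p38i, a log2 difference of -0.49 that was -0.14 with the length trend removed. At 10 h the DMSO libraries were at 22.7 and 22.8 RPKM and the p38i libraries at 21.1 and 20.9 RPKM. The 10 h groups were apart by a log2 difference of only -0.12.

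The log2 differences of the co-activators were above 0 at all 3 times as deposited. Yap1 (chr9:7931999-8004596) was at 22.4 and 27.7 RPKM with DMSO and at 32.5 and 25.6 RPKM with p38i at 4 h. At 7 h it was at 26.5 and 32.3 RPKM with DMSO and at 29.1 and 30.4 RPKM with p38i. Its 10 h levels were 28.8 and 30.4 RPKM with DMSO and 29.5 and 33.7 RPKM with p38i. The groups overlapped at all 3 times, with log2 differences of 0.21, 0.02, and 0.09, and of 0.47 at 7 h with the length trend removed.

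Wwtr1, which encodes TAZ, lies at chr3:57455649-57575910. Its 4 h levels were 24.6 and 26.6 RPKM with DMSO and 32.9 and 27.5 RPKM with p38i. The 7 h libraries were at 26.4 and 26.1 RPKM with DMSO and at 29.6 and 27.7 RPKM with p38i. By 10 h the levels were 26.0 and 26.1 RPKM with DMSO and 29.2 and 28.5 RPKM with p38i. All 6 p38i libraries were above all 6 DMSO libraries, the reverse of Ctgf, by log2 differences of 0.23, 0.13, and 0.15. The 7 h value was 0.35 with the length trend removed and 0.32 with each library centred on its median, and the 4 h value ran from 0.11 to 0.36 with 1 library left out.

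Tead4, the TEAD factor required for the trophectoderm, had the highest median level of the 10 genes over the 12 libraries, with a range of 24.1 to 45.5 RPKM. In p38i 7 h replicate 1 it was below Yap1 and Wwtr1. At 4 h it overlapped between DMSO (35.2 and 38.7 RPKM) and p38i (43.6 and 31.6 RPKM). Its 7 h levels were 45.5 and 42.8 RPKM with DMSO and 24.1 and 32.7 RPKM with p38i. At 10 h it was at 41.1 and 43.2 RPKM with DMSO and at 44.1 and 44.0 RPKM with p38i. Only the 7 h p38i libraries were below the controls, by a log2 difference of -0.65 (-0.54 with the length trend removed, -0.43 without p38i 7 h replicate 1). Tead4 made up 50.7% and 57.9% of the summed RPKM of Tead1 to Tead4 in the p38i 7 h libraries, and 62.2% and 64.3% in the DMSO 7 h libraries.

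**Figure D3:**
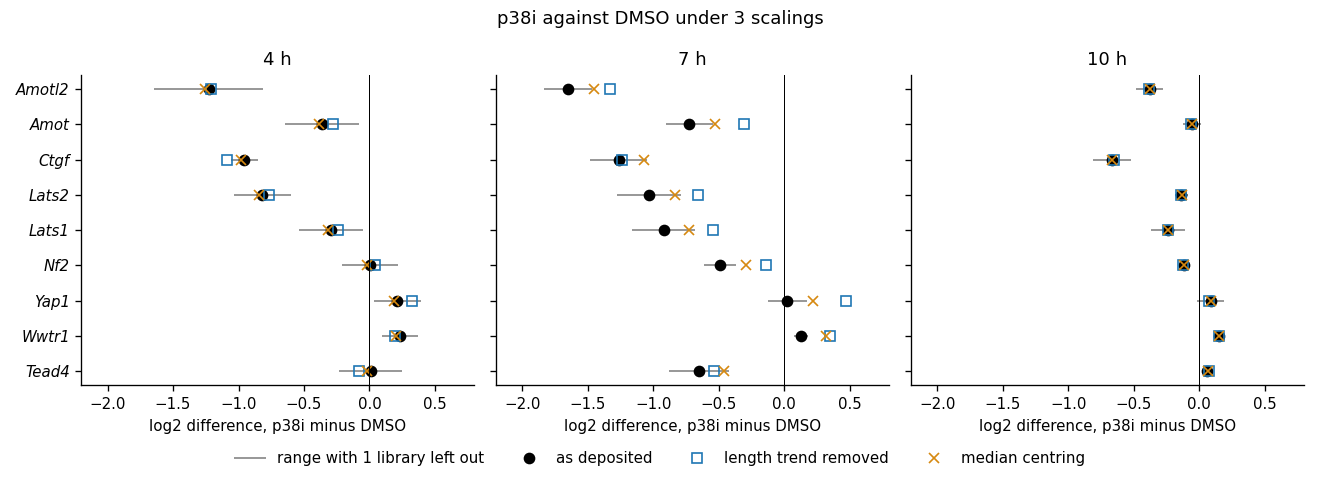
log2 difference between p38i and DMSO (x axes) of the 9 genes that passed the filter, at 4 h, 7 h, and 10 h, as deposited (black), with the length trend removed (blue squares), and with each library centred on its median (orange crosses); grey lines span the values with 1 library left out. At 7 h removing the length trend moves Amot from -0.72 to -0.31 and Yap1 from 0.02 to 0.47, while Ctgf goes from -1.27 to -1.24.

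**Figure D4:**
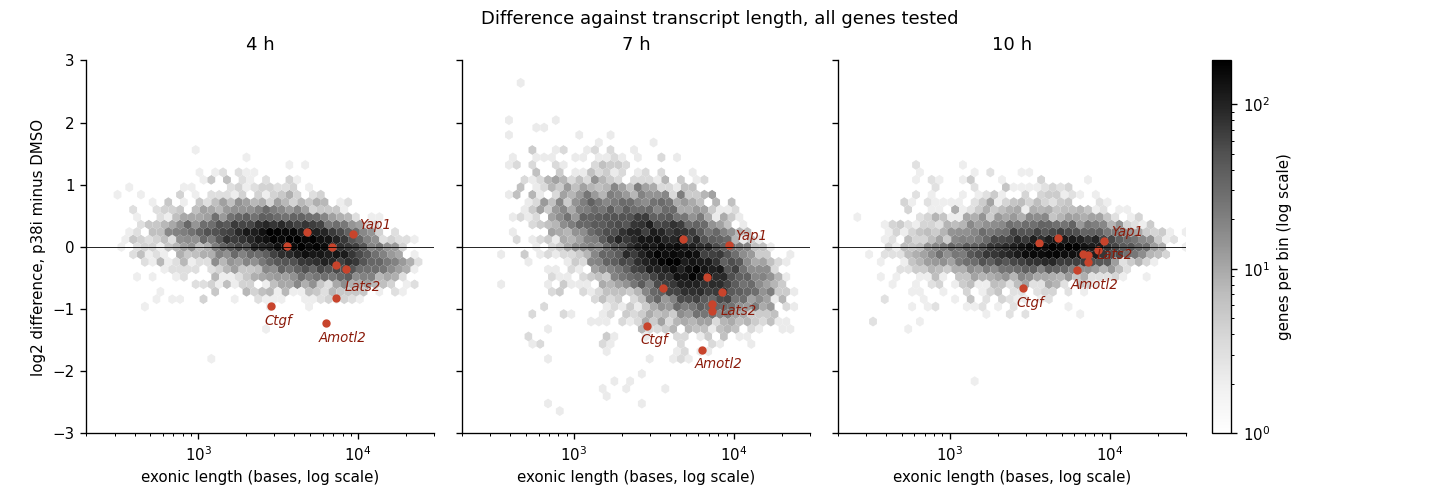
log2 difference between p38i and DMSO (y axis) against exonic length in bases (x axis, log scale) for all genes tested (grey bins, shade by number of genes on a log scale) and for the 9 genes (red dots, with Amotl2, Ctgf, Lats2, and Yap1 named); differences beyond 3 in size are not drawn. Amotl2 lies at the lower edge of the genes of its length at 4 h and 7 h, and Yap1 lies above most genes of its length at 7 h.

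With p38i, 4, 7, and 5 of the 9 lay below both DMSO libraries at the 3 times, where 13.7%, 38.7%, and 29.6% of all genes tested did. These contrasts guided the choice of the genes, and nothing is read from the counts. Among the tested genes ordered from the lowest difference, Amotl2 stood at position 35 of 10781 at 4 h, 143 of 10940 at 7 h, and 638 of 10959 at 10 h. The positions of Ctgf were 59, 305, and 196.

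The DMSO libraries alone showed how the 10 genes behaved over the hours of culture. The choice of genes did not use this comparison, but the same DMSO libraries were part of the contrasts that guided it. The p-values over time are therefore not independent of the choice. With limma, 0 of the 9 genes that passed the filter were called between 4 h and 7 h, between 7 h and 10 h, or between 4 h and 10 h. Of all genes tested, 0.492%, 0.0552%, and 0.471% were called in these comparisons. Before adjustment 1, 0, and 1 of the 9 had a p under 0.05, in both cases Amotl2, where 4.79%, 3.79%, and 15.2% of all genes did. With voom on the recovered reads 0, 0, and 1 were called, against 0 of 10776, 9 of 10873, and 191 of 10825 of all genes tested.

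Amotl2 was higher in each later DMSO group, from 19.3 to 25.2 to 29.0 RPKM, with no overlap between the groups. From 4 h to 10 h its log2 difference was 0.58, with an adjusted p of 0.0661 in limma, and the median over all genes tested was 0.14. The adjusted p was between 0.000886 and 0.779 under the alternatives, among them 0.0106 with voom, and the difference with the length trend removed was 0.41. Of the other genes, Lats1 had the largest difference (0.32), and Yap1 differed by 0.25 (adjusted p = 0.553 and 0.381 by limma). Amot was level, at 17.9 ± 0.93 RPKM at 4 h and 17.8 ± 1.05 RPKM at 10 h (SD, n = 2).

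The wider pathway was described with 67 further genes in 6 lists drawn up by role in the pathway, with earlier results of these data known. Of these, 46 were at 1 RPKM or more in all 12 libraries and 18 were below it in all 12. The core kinases, the angiomotin turnover genes, and the lineage genes were all present. The YAP target signature, drawn up from other cell types, was mostly at low levels: 13 of its 19 genes were under 1 RPKM in every library, among them the textbook targets Ankrd1 and Axl.

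At 4 h, 1 of the 47 genes that passed the filter was called, at 7 h 4 of 48, and at 10 h 0 of 49, all lower with p38i. For comparison, 0.909%, 2.13%, and 0.803% of all genes tested were called in either direction at these times. Before adjustment 10, 24, and 8 of them had a p under 0.05, where 9.42%, 28.4%, and 19.8% of all genes did. The median difference of the 6 lists was -0.23, -0.54, and 0.0032 at the 3 times, against 0.07, -0.14, and -0.02 over all genes tested. These medians were not matched for transcript length. Over all genes tested of 6000 bases or more, the medians were -0.10, -0.45, and -0.0041. Voom on the recovered reads called 0, 17, and 2. Of all genes tested it called 0 of 10781, 1437 of 10940, and 477 of 10959.

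Among the core kinases, Stk3 (MST2, the kinase that activates LATS) fell at 7 h. It was at 8.59 and 8.32 RPKM with DMSO and at 2.03 and 4.02 RPKM with p38i, a log2 difference of -1.56 (SE 0.32, adjusted p = 0.0487 by limma), or -1.49 with the length trend removed. At 4 h its difference was -0.19 and at 10 h -0.09. Its paralog Stk4 (MST1), at 10.6 and 13.0 RPKM with DMSO and 6.09 and 8.11 RPKM with p38i at 7 h, was not called (adjusted p = 0.0822 by limma). Mob1a, which relays the signal to LATS, differed by -0.59 at 7 h (adjusted p = 0.0822), and Stk38, a kinase related to LATS, by -0.07 (adjusted p = 0.854). In this list limma called 0, 1, and 0 of the 7 genes at the 3 times, against 0.909%, 2.13%, and 0.803% of all genes tested. Voom on the recovered reads called 0, 2, and 1, against 0 of 10781, 1437 of 10940, and 477 of 10959 of all genes tested.

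Of the 24 upstream regulators 20 passed the filter, and 0 were called by limma at any of the 3 times. Under an unadjusted p of 0.05 were 1, 10, and 1, where 9.42%, 28.4%, and 19.8% of all genes tested were. Voom on the recovered reads called 0, 8, and 0, against 0 of 10781, 1437 of 10940, and 477 of 10959 of all genes tested. The most abundant were Slmap, a STRIPAK adaptor that restrains MST, and the KIBRA proteins Wwc2 and Wwc1. At 7 h their log2 differences were -0.78, -0.79, and -0.80, with adjusted p values of 0.0723, 0.0559, and 0.0572 by limma. With the length trend removed they were -0.38, -0.22, and -0.57. The list median at 7 h was -0.52, not corrected for length.

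The angiomotin turnover list holds the ligases and the deubiquitinase that set angiomotin stability. Usp9x, the deubiquitinase, was called lower at 4 h and at 7 h. At 4 h it was at 9.34 and 10.6 RPKM with DMSO and at 7.80 and 2.51 RPKM with p38i (log2 difference -1.17, SE 0.24, adjusted p = 0.000503 by limma). Without p38i 4 h replicate 2 the difference was -0.35 and the adjusted p was 0.998, and the call was also lost without DMSO 4 h replicate 1 (adjusted p = 0.144) or replicate 2 (adjusted p = 0.229). At 7 h Usp9x was at 8.96 and 13.3 RPKM with DMSO and at 4.63 and 4.23 RPKM with p38i (log2 difference -1.30, SE 0.25, adjusted p = 0.0461). The ligases Nedd4l and Nedd4 and the tankyrase Tnks2 were not called by limma at any time. Voom on the recovered reads called 3 genes of the list at 7 h, Usp9x, Nedd4, and the ligase Itch (named after its value was seen). It called 0 at 4 h and at 10 h. Of all genes tested it called 1437 of 10940 at 7 h. Usp9x has an exonic length of 15051 bases, and its 7 h difference was -0.71 with the length trend removed.

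Among the other TEAD factors and the Vgll cofactors, which bind TEAD in place of YAP, Tead1 and Vgll4 were called lower at 7 h. At 4 h they were also below the controls without overlap, by -0.74 and -0.75 (adjusted p = 0.132 and 0.134 by limma). Their 10 h differences were 0.07 and -0.18. Tead1 was at 7.61 and 8.22 RPKM with DMSO and at 3.34 and 3.83 RPKM with p38i (log2 difference -1.14, SE 0.23, adjusted p = 0.0461 by limma). Vgll4, a repressor of TEAD activity, was at 7.17 and 9.82 RPKM with DMSO and at 3.58 and 3.90 RPKM with p38i (log2 difference -1.17, SE 0.24, adjusted p = 0.0487). With the length trend removed the differences were -0.58 and -0.90. Tead2 was not called at any time, and its difference at 7 h was 0.18 (adjusted p = 0.576). At 10 h 0 of the 6 genes that passed the filter were called. Under an unadjusted p of 0.05 were 0 of them, where 19.8% of all genes tested were.

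The 4 calls at 7 h were lost with the length trend removed, with median centring, and without DMSO 7 h replicate 2 (0 called in each). Without DMSO 7 h replicate 1 Usp9x alone was called (adjusted p = 0.0355). Without p38i 7 h replicate 1, the shallowest library, the log2 differences of Stk3, Usp9x, Tead1, and Vgll4 were -1.07, -1.37, -1.05, and -1.11. In fits that left a library out, here and for Usp9x at 4 h, the remaining library of that group is assumed to vary like the other pair.

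**Figure D5:**
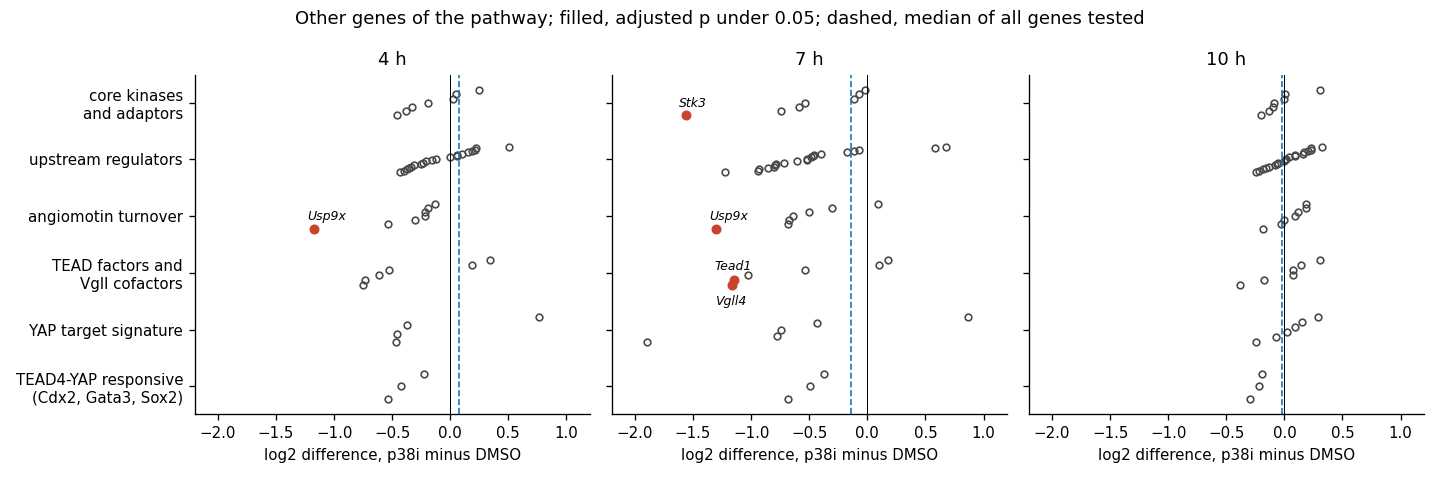
log2 difference between p38i and DMSO (x axes) of the pathway genes that passed the filter, by list (rows), at 4 h, 7 h, and 10 h; filled red points had an adjusted p under 0.05 in limma, open points did not, and the dashed line is the median of all genes tested. Usp9x is called at 4 h and Stk3, Usp9x, Tead1, and Vgll4 at 7 h, and the points gather around 0 at 10 h.

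In the YAP target signature 4, 5, and 6 of the 19 genes passed the filter at the 3 times and 0 were called by limma. Under an unadjusted p of 0.05 were 1, 2, and 1, where 9.42%, 28.4%, and 19.8% of all genes tested were. Voom on the recovered reads called 0, 1, and 0, the 7 h gene being Myof. Of all genes tested it called 0 of 10781, 1437 of 10940, and 477 of 10959. Cyr61 (Ccn1), the close relative of Ctgf and a textbook YAP target, was at 6.92 and 7.30 RPKM with DMSO and at 5.17 and 5.18 RPKM with p38i at 4 h. By 7 h the levels were 8.19 and 8.87 RPKM with DMSO and 3.52 and 7.39 RPKM with p38i. The 10 h libraries were at 8.30 and 8.15 RPKM with DMSO and at 10.4 and 9.66 RPKM with p38i. Cyr61 was thus below the controls at the first 2 times and above them at 10 h, where Ctgf was still below. Its 7 h log2 difference was -0.74 (-0.83 with the length trend removed), and without p38i 7 h replicate 1 it was -0.21. Gadd45a, a stress-induced gene of the list, was above the controls at 4 h and 7 h by 0.76 and 0.86 on the log2 scale (adjusted p = 0.115 and 0.110 by limma). Dock5 differed by -0.38, -0.43, and 0.02.

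The genes that TEAD4 and YAP1 act on in the blastocyst were measured deeply. Cdx2, the trophectoderm factor they induce, was at 195 and 219 RPKM with DMSO and at 151 and 158 RPKM with p38i at 4 h. At 7 h it was at 237 and 190 RPKM with DMSO and at 158 and 144 RPKM with p38i. Its 10 h levels were 204 and 208 RPKM with DMSO and 177 and 176 RPKM with p38i. The groups did not overlap at any time, and the log2 differences of -0.42, -0.49, and -0.22 had adjusted p values of 0.490, 0.127, and 0.110 by limma. The 7 h difference was -0.54 with the length trend removed.

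Gata3, the other trophectoderm factor under TEAD4, was at 92.1 and 101 RPKM with DMSO and at 62.5 and 70.7 RPKM with p38i at 4 h. The 7 h libraries were at 109.8 and 90.1 RPKM with DMSO and at 67.2 and 57.2 RPKM with p38i. By 10 h the levels were 111 and 115 RPKM with DMSO and 94.7 and 89.4 RPKM with p38i. It too was lower in every p38i library than in the controls of its time, by -0.54, -0.68, and -0.30 on the log2 scale, with adjusted p values of 0.227, 0.0652, and 0.0871 by limma. With the length trend removed the 7 h difference was -0.53. Voom on the recovered reads called Gata3 at 7 h and at 10 h.

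Sox2, an inner cell mass gene that TEAD4 and YAP1 repress in outer cells, was also below the controls at all 3 times. Its log2 differences were -0.23, -0.37, and -0.19 (adjusted p = 0.764, 0.192, and 0.212 by limma). Cdx2, Gata3, and Sox2 were all below the controls without overlap at the 3 times, where 13.7%, 38.7%, and 29.6% of all genes tested were. The cause was not tested. None of the 3 was called by limma at any time. Under an unadjusted p of 0.05 were 2, 2, and 3, where 9.42%, 28.4%, and 19.8% of all genes tested were.

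By Pearson correlation of log2 RPKM over the 12 libraries, among 9388 genes at 1 RPKM or more in all 12, the genes most like Amotl2 were Cpeb3 (0.98), Pgap1, Usp53, Arhgef18, and Pdpk1 (0.97 each). These 5 have exonic lengths between 7414 and 16611 bases. Among the 10 genes, Lats2 was most like Amotl2 (0.95), followed by Amot (0.84), Ctgf (0.81), and Lats1 (0.76), and Wwtr1 ran the other way (-0.46). The genes most like Ctgf were Serinc1 (0.95), Rlim (0.94), Rbm14, Rnf2, and Rock1 (0.93 each), and among the 10 genes Lats1 (0.85), Lats2 (0.84), and Amotl2 (0.81), with Wwtr1 at -0.80. The 12 points share the groups, the depth, and the length trend of the libraries, so these are descriptions.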

How the data were processed

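The values are from the 12 poly(A) libraries (stranded, 50-base single reads). The authors trimmed reads with Trim Galore 0.4.1, aligned them with HISAT2 2.0.5 to GRCm38, and deposited 1 table of log2 RPKM values per gene. No spike-ins were used. From the deposited log2 values, library totals and whole reads were recovered for all 34245 genes, within 0.05 reads. A gene with no read holds the value of 0.9 reads.

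Groups were taken from the labels. For each comparison, limma 3.58.1 (R 4.3.3) with an intensity trend was fitted to the log2 RPKM of its 4 libraries, over genes at 1 RPKM or more in at least 2 of them, with Benjamini-Hochberg adjustment over all genes tested and a threshold of 0.05. The p-values rest on a spread between pools of 30 blastocysts that limma shares over genes of similar level. The SE of a gene can therefore be smaller than the spread of its own libraries. The labels do not say whether the pools of a group came from separate cultures. An exact permutation test of 2 against 2 cannot go below 0.333. The script was tested on simulated data. The p38i comparisons at the 3 times have their own controls. The control time comparisons share DMSO libraries.

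The members and lists were chosen with earlier results of these data known. The genes named were all 10 members, Cdx2, Gata3, and Sox2, and from each list up to 6 called genes and the 3 with the highest mean level, with the 5 genes most like Amotl2 and Ctgf. Alternatives were median centring, a loess length correction (span 0.5), no filter, a filter of 10 RPKM, a pseudocount of 1 RPKM, limma without the trend, all libraries in 1 fit, a replicate block, voom on recovered reads, and each library left out. Gene positions and lengths are from GENCODE M21 (GRCm38), promoter windows from RefSeq.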

Additional observations from a re-analysis of the deposited data

Results flagged for a closer look

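Among the genes described above that passed the filter, pathway lists included, there were 6 in which every p38i library lay on one side of the controls at one time and on the other side at another. The difference between the times was not tested. The share of all genes tested that changed sides in this way was not computed, and nothing is read from the count. On the lower side alone, 13.7%, 38.7%, and 29.6% of all genes tested did not overlap at 4 h, 7 h, and 10 h. Tead4 was below the DMSO libraries at 7 h (log2 difference -0.65) and above them at 10 h (0.064). Nedd4 was below at 4 h (-0.53) and at 7 h (-0.68) and above at 10 h (0.19). Cyr61 was below at 4 h (-0.46) and at 7 h (-0.74, or -0.21 without p38i 7 h replicate 1) and above at 10 h (0.29). Sike1 was above at 4 h (0.097) and below at 7 h (-0.40). Strn4 was below at 7 h (-0.46) and above at 10 h (0.17), and so was Tnks (-0.50 and 0.12).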

How the results depend on the processing

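Of the 27 differences between p38i and DMSO of the 9 genes that passed the filter, 25 kept their sign under every other scaling, filter, and model, and 22 also with each library left out. The exceptions were Tead4 and Nf2 at 4 h, Yap1 at 7 h and 10 h, and Amot at 10 h. Of 342 values under the alternatives, 18 moved by more than 1 SD between replicates, 13 of them at 7 h. The numbers of genes called moved far more than the differences. The cause was not tested.

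At 4 h (98 genes of all those tested and 1 pathway gene called), the number called was 0 with median centring, with the length trend removed, without the filter, with 12 libraries in 1 fit, and with voom on recovered reads, 36 with a filter of 10 RPKM, and 11 without the limma trend. The pathway count was 0 under each of these 7. With each library left out, 9 to 424 genes and 0 to 5 pathway genes were called.

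At 7 h (233 and 4), the number called was 0 with median centring, with the length trend removed, and without the limma trend. It was 1236 without the filter, 947 at 10 RPKM, 509 with a pseudocount, 2512 with 12 libraries in 1 fit, and 1437 with voom. The pathway count was 0, 0, 0, 10, 7, 8, 20, and 17 in the same order. With each library left out, 0 to 2919 genes and 0 to 23 pathway genes were called.

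At 10 h (88 and 0), the number called was 0 without the filter and with 12 libraries in 1 fit, 166 at 10 RPKM, 9 without the limma trend, and 477 with voom, which called 2 pathway genes. With each library left out, 78 to 140 genes and 0 pathway genes were called.

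Between DMSO 4 h and 7 h (53 called), the number was 0 with median centring, length trend removed, no filter, and voom, 12 at 10 RPKM, 5 without the limma trend, and 1 with the 6 control libraries in 1 fit. It was 10 to 58 with each library left out. Between DMSO 7 h and 10 h (6 called), it was 3 with median centring, length trend removed, or a pseudocount, 16 without the filter, 0 at 10 RPKM, 14 without the limma trend, and 3 to 221 with each library left out. Between DMSO 4 h and 10 h (51 called), it was 276 at 10 RPKM, 26 without the limma trend, 10 with 6 libraries in 1 fit, 191 with voom, and 46 to 1228 with each library left out. Of the 9 genes tested, 1 was called there at 10 RPKM and with voom, and 0 to 2 with each library left out. Pathway genes called there were 0 to 2 with each library left out.

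The labels do not say whether same-numbered libraries were paired. Same-numbered libraries deviated together with correlations from -0.01 to 0.14 in the 6 comparisons. Correlations across genes cannot show whether the libraries were paired. With the replicate block, 2023 genes and 21 pathway genes were called at 7 h, 410 genes at 10 h, and 0, 28, and 536 genes in the 3 control comparisons (DMSO 4 h to 7 h, 7 h to 10 h, and 4 h to 10 h), in the last of which 1 of the 9 genes was called, Amotl2.

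The values with the fewest reads were those of Amotl1, which was never above 164 reads, and of Lats1 and Ctgf in the shallowest library, with 94 and 93 reads.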
